A study of Mus musculus with 4 samples.

Results

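The comparison described here sets the MycN culture of an immortalized mouse embryonic fibroblast line against the empty-vector culture, over all genes with a mean of 1 FPKM or more across the 4 libraries of the study. FPKM count fragments per kilobase of transcript and per unit of library size. Of 23366 gene symbols with FPKM, 11950 (51.1%) met that filter. The filter used the mean alone and not the difference. Just inside it lay Mss51, with a mean of 1.004 FPKM, and just outside it Prox2, with a mean of 0.998 FPKM.

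Mouse embryonic fibroblasts are connective tissue cells grown out of embryos, and the line used was immortalized, grown in DMEM with serum. A first culture carried the empty vector, and the others Myc, MycN and a protein that the labels name Minimal Myc. All 4 received adenoviral Cre recombinase, which cuts out DNA between its recognition sites, and were harvested after a recovery given as 48, with no unit. Per the series design Myc is deleted in the vector cells, which makes the question how expression differs between cells without Myc and cells given one of these proteins. Each culture gave 1 library, so no difference below has a replicate check, no test was possible, and the p-values and errors usual in such a report are lacking. The labels do not say whether the cultures are clones or pools, or which promoter drives the added proteins.

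Myc and MycN are transcription factors of the same family that bind DNA together with Max at short palindromes called E-boxes. They are known for raising genes of ribosome assembly, nucleotide synthesis and the cell cycle, and for lowering some genes of adhesion, the cytoskeleton and cell cycle arrest. The Mxd proteins and Mnt compete for Max and act as repressors at the same sites. Mycn is best known from the embryo and from neuroblastoma and is normally low in fibroblasts.

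Promoter sequence is printed for 3 sets of genes whose levels are described below. The windows run from 250 bases before to 50 bases after a start site, are those of RefSeq on build GRCm38.p6, and were found by symbol for 8590 of the 11950 genes (71.9%). Stretches of 90 bases around a match are shown 5′ to 3′ in the direction of the gene, with the matched letters of either strand in capitals. The E-box letters CACGTG are their own reverse complement. They stood in 10.2% of the windows of all genes compared and in 7.15% of all 32851 windows. In a list of classical E-box targets of Myc the share was 33.3%. That list was picked for its E-boxes, so its share is no independent result. The share was 34.5% in the small subunit processome and 23.1% in large ribosomal subunit assembly factors. Replication fork enzymes had the letters in 19.4% of their windows, also above the 10.2% of all genes compared. Other growth lists did not share this. The letters stood in 3 of 25 windows of RNA polymerase I genes (12.0%), 1 of 24 of the replicative helicase (4.17%) and 0 of 13 of small nucleolar ribonucleoproteins. Ldha, the lactate dehydrogenase gene, Nop2, an rRNA methyltransferase gene, and Rrn3, an initiation factor gene of RNA polymerase I, are shown. Ldha was 455 FPKM in vector and 764 in MycN, Nop2 34.7 and 57.9, and Rrn3 11.9 and 16.9. None of these differed by 2-fold.
Ldha (chr7:46845714-46845803, plus strand): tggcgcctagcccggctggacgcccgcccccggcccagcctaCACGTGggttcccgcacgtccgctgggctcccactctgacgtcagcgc
Nop2 (chr6:125131781-125131870, plus strand): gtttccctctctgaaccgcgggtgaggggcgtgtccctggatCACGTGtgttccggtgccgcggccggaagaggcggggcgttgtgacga
Rrn3 (chr16:13780609-13780698, plus strand): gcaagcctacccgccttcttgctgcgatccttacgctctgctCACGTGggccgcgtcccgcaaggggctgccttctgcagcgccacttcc
A match is a description of letters and not evidence of binding.

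The interferon-type element, the letters GAAA, any 2 bases and GAAA again, searched on both strands, stood in 14 of 40 windows of antiviral effector genes (35.0%) and in 7 of 8 windows of interferon-inducible GTPase genes (87.5%), against 3.02% of the windows of all genes compared and 3.44% of all windows. Isg15, a ubiquitin-like protein, Oas1a, an RNA-sensing synthetase, and Ifit1 and Ifit3, RNA-binding inhibitors of translation, are shown because these genes were low in MycN. Overlapping copies are capitalized as 1 run, and TTTC marks the element on the other strand.
Isg15 (chr4:156200835-156200924, minus strand): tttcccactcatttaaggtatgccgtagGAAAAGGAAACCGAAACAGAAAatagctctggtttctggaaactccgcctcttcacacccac
Oas1a (chr5:120907526-120907615, minus strand): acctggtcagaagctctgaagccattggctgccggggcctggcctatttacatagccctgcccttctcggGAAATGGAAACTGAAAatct
Ifit1 (chr19:34640764-34640853, plus strand): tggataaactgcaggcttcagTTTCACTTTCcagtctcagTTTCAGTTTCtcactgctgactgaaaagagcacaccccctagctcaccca
Ifit3 (chr19:34583367-34583456, plus strand): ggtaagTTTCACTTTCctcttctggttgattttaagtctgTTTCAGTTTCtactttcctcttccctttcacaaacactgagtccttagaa
The CArG box, the site named for serum response factor, stood in 6 of 31 windows of actomyosin contractile genes (19.4%), against 1.28% of the windows of all genes compared and 1.63% of all windows. Myl9, a myosin regulatory light chain, Vcl, the focal adhesion protein vinculin, and Acta1, the skeletal actin, are shown.
Myl9 (chr2:156775263-156775352, plus strand): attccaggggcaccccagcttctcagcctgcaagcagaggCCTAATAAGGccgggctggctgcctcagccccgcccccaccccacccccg
Vcl (chr14:20929148-20929237, plus strand): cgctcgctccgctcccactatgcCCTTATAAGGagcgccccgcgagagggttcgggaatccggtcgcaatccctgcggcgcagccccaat
Acta1 (chr8:123894799-123894888, minus strand): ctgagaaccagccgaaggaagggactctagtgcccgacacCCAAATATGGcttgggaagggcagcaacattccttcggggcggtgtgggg
Both the second and the third motif were chosen for lists that earlier results of these data had shown to be low in MycN.

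The depth of the libraries can be estimated from the smallest steps between low FPKM values, each worth 1 fragment. The totals that the values were scaled to came to about 67800000 fragments in vector and 93700000 in MycN, with 68200000 in Myc and 88500000 in Minimal Myc. Under these totals, 67.6% to 68.4% of low values lay within 0.1 of a whole fragment, where an even spread would give 20.0%. A transcript of 2 kb at 1 FPKM would then have about 121 fragments in vector and 168 in MycN. The spread between cultures of 1 kind was not measured. The spike-in RNAs that the labels mention have 0 lines in the tables, and FPKM alone cannot show the amount of RNA per cell.

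The labels were checked against the targeted gene and against cell type markers. Mycn stood at 0.3903 FPKM in vector and 178 in MycN, with 0.275 in Myc and 95.9 in Minimal Myc. It was thus high where MycN was given and also in Minimal Myc, whose parent gene the labels do not name. Myc stood at 22.2 FPKM in vector and 4.36 in MycN, with 141 in Myc and 32.6 in Minimal Myc, so the vector library is not shown to lack Myc RNA, and the lowest level was in MycN. Of 16 fibroblast markers, 14 passed the filter, and the list summed to 2946 FPKM in vector and 3088 in MycN, with 4005 in Myc and 4003 in Minimal Myc. Within it Thy1, a surface glycoprotein, was 95.5 FPKM in MycN against 208 in vector, 115 in Myc and 354 in Minimal Myc, while Twist2, a mesenchymal transcription factor, was 324 FPKM in MycN against 113 in vector, 289 in Myc and 417 in Minimal Myc. Lum and Fap, the other 2 fibroblast markers, lay below 1 FPKM in all 4 libraries. Most markers of other cell types lay below 1 FPKM in vector and in MycN, with the exceptions named here. Epcam, Ptprc and Adipoq, which define epithelial, immune and fat cells, lay below 0.1 FPKM in both. The 15 epithelial markers summed to 14.5 FPKM in vector and 6.29 in MycN, of which Krt19, a keratin of simple epithelia, held 13.2 and 4.34 FPKM. The 12 immune markers summed to 10.9 and 11.4 FPKM, of which Cd14 held 7.03 and 6.79 FPKM. The 10 endothelial markers summed to 2.01 and 2.05 FPKM. The 22 neural markers summed to 58.9 FPKM in vector and 48.6 in MycN. The 9 adipocyte markers summed to 16.4 and 65.6 FPKM. The adipocyte sum was higher in MycN almost wholly through Fabp4, a fatty acid binding protein, at 52.96 FPKM in MycN against 7.61 in vector, 9.75 in Myc and 9.804 in Minimal Myc. In bulk RNA, fewer cells of a type and less of its RNA per cell cannot be told apart.

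Most genes were higher in MycN than in vector. Differences are given as MycN minus vector in log2(FPKM + 1), on which low genes appear to differ less than their FPKM do. The median difference over 11950 genes was 0.42, the quartiles were 0.11 and 0.68, and 81.0% of genes lay above 0. At least 2-fold higher were 975 genes, 8.16% of those compared, and at least 2-fold lower were 295, or 2.47%. Relative to the median, which is called centred below, 281 genes (2.35%) were at least 2-fold higher and 571 (4.78%) at least 2-fold lower. The split thus turns over with the centring: 76.8% of the genes counted were higher as computed and 33.0% after centring. The authors' scaled table multiplies the MycN library by 1.30, which equals its mean ratio to vector by NanoString, a second readout described below. There the median difference was 0.76, and 3301 genes were at least 2-fold higher against 219 lower. Each gene list is therefore given by its counts as computed, to be read against 8.16% higher and 2.47% lower over all genes, and by its counts after centring, to be read against 2.35% higher and 4.78% lower. The centred median of a list like all genes would stand at 0. Counts of members with their highest or lowest level in MycN have no share of all genes beside them. Whether such counts exceed those of all genes was not tested.

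**Figure D1:**
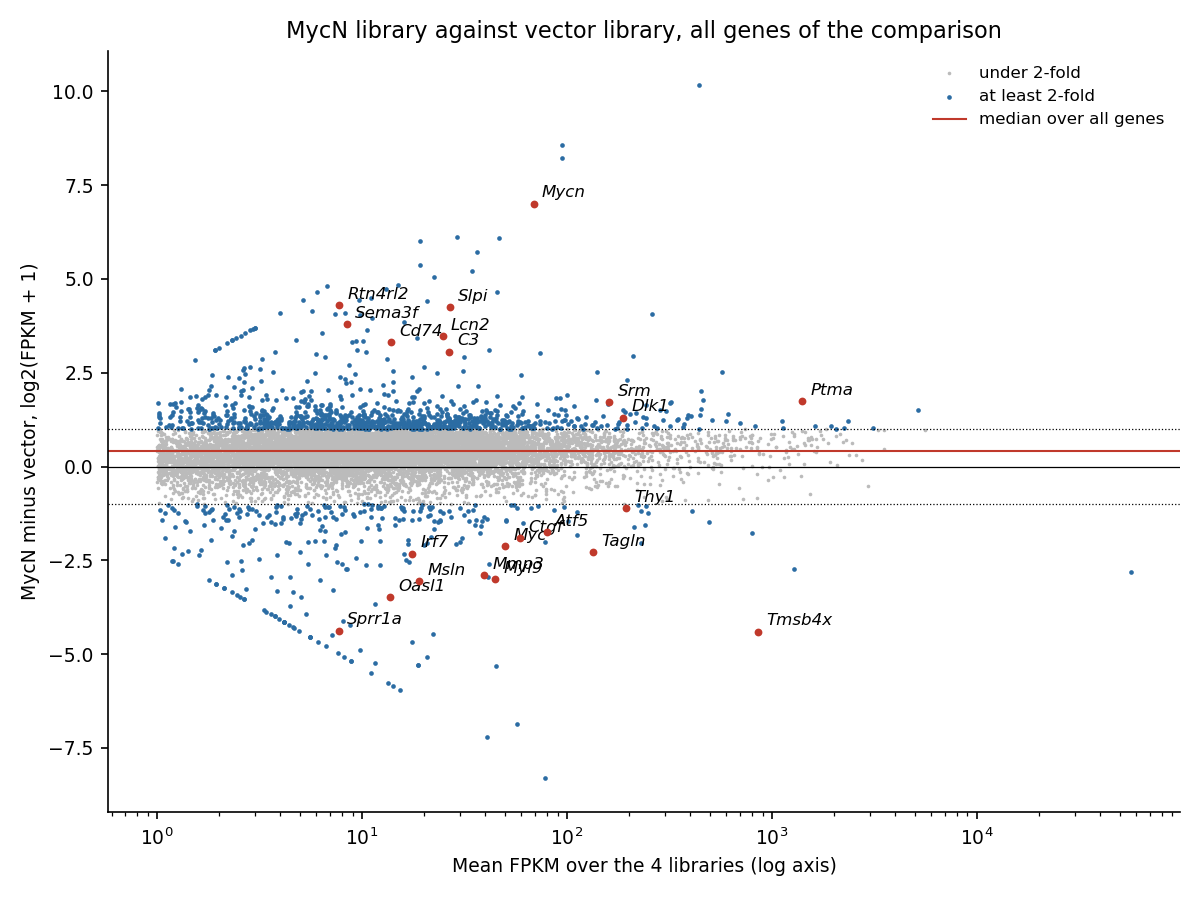
Difference between the MycN and the vector library, log2(FPKM + 1), for each of the 11950 genes against its mean FPKM over the 4 libraries on a log axis, 1 library per culture. Blue points differ by at least 2-fold (dotted lines), the red line is the median of 0.42, and most points lie above 0. Red points are named genes, from Mycn at 7.01 to Tmsb4x at -4.40.

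The share of genes counted after centring depended little on level above a few FPKM. Without small RNA genes it was 9.56% of 1767 genes between 1 and 3 FPKM, 6.36% of 3477 genes between 3 and 10, and 5.03% of 715 genes at 100 FPKM or more. Small RNA genes, 309 of the 11950, held 85 of the genes at least 2-fold higher and 79 of those lower. Of the 309, 123 were listed at 0 in vector, in MycN or in both. Poly(A)-selected RNA does not measure such genes reliably, and they are not named below.

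Within the Myc network, 11 of 12 measured genes were higher in MycN than in vector, against 81.0% of all genes, and 3 were at least 2-fold higher, against 8.16%. Mycn, the gene given to the culture, is 1 of these 3, and Myc was the gene lower. After centring 2 were higher by 2-fold or more against 1 lower, and the median was 0.30. Max, the partner that all members need, was 18.8 FPKM in vector and 36.2 in MycN, with 37.3 in Myc and 34.5 in Minimal Myc. It was higher in each of the 3 cultures given a protein than in vector. Mxd4, a repressor that binds Max, was 45.2 FPKM in MycN against 12.8 in vector, 32.4 in Myc and 18.1 in Minimal Myc, a difference of 1.74. Mxi1, another repressor of the Mxd family, was 15.05 FPKM in MycN against 5.203 in vector, 12.1 in Myc and 7.97 in Minimal Myc, a difference of 1.37. Both repressors had their highest level in MycN and were lower in Minimal Myc than in Myc. Mxd3 differed, at 14.4 FPKM in vector and 23.6 in MycN, with 36.9 in Myc and 29.6 in Minimal Myc, with its highest level in Myc. Mxd1 was low throughout, at 1.49 FPKM in vector and 2.76 in MycN, with 1.89 in Myc and 1.91 in Minimal Myc. Mnt, which competes for Max in growing cells, was 5.52 FPKM in vector and 8.17 in MycN, with 9.99 in Myc and 10.05 in Minimal Myc, and its difference of 0.49 was close to the median of all genes. Mga, a large Max partner, was 5.395 FPKM in vector and 9.75 in MycN, with 8.52 in Myc and 5.64 in Minimal Myc. Mlx and Mlxip, which form the parallel glucose-sensing branch, were 25.8 FPKM in MycN against 16.2 in vector and 10.6 FPKM in MycN against 6.42 in vector. Mycl1, the lung relative of Myc, was 0.432 FPKM in vector and 1.58 in MycN, with 0.676 in Myc and 1.33 in Minimal Myc.

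Classical Myc targets, genes with E-boxes long used to study the family, were all above vector. Of 24 genes, 7 (29.2%, against 8.16% of all genes) were at least 2-fold higher against 0 lower. After centring these counts were 3 and 0, and the centred median was 0.38. The list was chosen with earlier results known and its members were picked as targets of Myc, so its direction is no independent evidence. Ptma, an acidic nuclear protein of growing cells, was 1849 FPKM in MycN against 554 in vector, 1853 in Myc and 1384 in Minimal Myc. Srm, which makes the polyamine spermidine, was 190.2 FPKM in MycN against 56.9 in vector, 254 in Myc and 143 in Minimal Myc. Hspd1 and Ncl, a mitochondrial chaperonin and the nucleolar protein nucleolin, were 393 FPKM in MycN against 149.9 in vector and 153 FPKM in MycN against 59.9 in vector. Tert, the catalytic part of telomerase, was low in level yet differed, at 0.998 FPKM in vector and 4.62 in MycN, with 3.75 in Myc and 1.99 in Minimal Myc. The lower end of the list lay near vector: Odc1, which starts polyamine synthesis, was 93.7 FPKM in vector and 112 in MycN, with 212 in Myc and 104 in Minimal Myc, and Shmt2, a mitochondrial serine enzyme, was 48.7 FPKM in vector and 61.5 in MycN, with 103 in Myc and 109 in Minimal Myc. Only 2 of the 24 genes had their highest level in MycN. The list stood at 0.80 above vector in MycN before centring, 1.29 in Myc and 1.12 in Minimal Myc, 3 values that share the vector library. For Myc and Minimal Myc the median of all genes is not given, so library-wide shifts are not set apart.

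Genes that build ribosomes were above the median of all genes in each of 5 lists, by small margins. Large subunit assembly factors were higher than vector in 39 of 39 genes, against 81.0% of all genes, and 7 of them (17.9%, against 8.16%) by at least 2-fold, with a centred median of 0.31. Rrp1b, which links rRNA processing to chromatin, was 20.3 FPKM in MycN against 6.58 in vector, 19.1 in Myc and 15.2 in Minimal Myc. Ppan, a processing factor of the large subunit, was 49.2 FPKM in MycN against 19.5 in vector, 61.1 in Myc and 50.5 in Minimal Myc. At the other end Gnl2, a nucleolar GTPase of the same pathway, was 30.5 FPKM in vector and 30.8 in MycN, with 38.9 in Myc and 34.2 in Minimal Myc. In the small subunit processome, the large particle that first folds the rRNA precursor, 5 of 38 subunits (13.2%) were at least 2-fold higher, with a centred median of 0.19. Wdr43 and Imp4, 2 of its subunits, were 71.6 FPKM in MycN against 23.7 in vector and 27.7 FPKM in MycN against 10.3 in vector. RNA polymerase I genes had 2 of 17 (11.8%) at least 2-fold higher, near the share of all genes, and a centred median of 0.30, led by the shared subunit gene Polr1c at 36.8 FPKM in vector and 79.8 in MycN, with 89.0003 in Myc and 66.9 in Minimal Myc. Proteins of small nucleolar ribonucleoproteins, which modify rRNA, had 3 of 15 at least 2-fold higher and the largest median of these lists, 0.35. Nop58 and Dkc1, core proteins of their 2 classes, were 119 FPKM in MycN against 48.7 in vector and 38.1 FPKM in MycN against 15.4 in vector. Nucleolar scaffold proteins had 3 of 15 at least 2-fold higher and a centred median of 0.16. No gene of these 5 lists was at least 2-fold lower, and after centring 1 small subunit gene and 1 large subunit gene were at least 2-fold higher. Some genes stand in more than 1 list. All 5 medians were lower in MycN than in Myc, as the large subunit list shows, with 0.72 in MycN and 1.13 in Myc before centring. The median of all genes in Myc is not given here, so the part of a library-wide shift was not tested.

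The mitochondrial lists lay close to all genes. Among 76 genes of mitochondrial ribosomal proteins, 5 (6.58%) were at least 2-fold higher, near the 8.16% of all genes, with a centred median of 0.12. Import and folding genes had 4 of 30 (13.3%) higher and a centred median of 0.03. The respiratory chain and ATP synthase had 3 of 75 higher and a centred median of 0.00. Ndufa10, a complex I subunit, stood apart from it at 124 FPKM in MycN against 42.03 in vector, 123 in Myc and 84.3 in Minimal Myc, and Ndufs5, another complex I subunit, was 68.8 FPKM in MycN against 106 in vector, 79.1 in Myc and 91.5 in Minimal Myc.

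Metabolic genes of growth differed among themselves. Purine synthesis had 1 of 19 genes at least 2-fold higher, against 8.16% of all genes, with a centred median of 0.18. Its highest gene by difference was Atic, which closes the purine ring, at 31.2 FPKM in vector and 64.1 in MycN, with 104 in Myc and 76.9 in Minimal Myc. Pyrimidine and deoxynucleotide synthesis had 2 of 17 higher, and Dtymk, the thymidylate kinase, was 223 FPKM in MycN against 69.3 in vector, 192 in Myc and 151 in Minimal Myc. Rrm2, which supplies deoxynucleotides for DNA synthesis, was near vector, at 71.5 FPKM in MycN against 71.03 in vector. Amino acid transporters had 2 of 17 higher. Slc43a1, a carrier of large neutral amino acids, was 7.695 FPKM in MycN against 0.4402 in vector, 4.08 in Myc and 0.517 in Minimal Myc, while the widely used transporters Slc7a5 and Slc3a2 were 28.9 FPKM in MycN against 26.5 in vector and 69.2 FPKM in MycN against 67.95 in vector. Glycolysis had 1 of 22 genes higher and 1 lower, with a centred median of 0.01. The gene lower was Slc16a3, the lactate exporter MCT4, at 7.27 FPKM in MycN against 29.6 in vector, 25.5 in Myc and 24.3 in Minimal Myc, and it was lower in MycN than in each of the other 3 libraries. The related carrier Slc16a1 went the other way, at 9.25 FPKM in vector and 16.9 in MycN, with 22.8 in Myc and 13.9 in Minimal Myc.

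Serine synthesis and Atf4 target genes, which respond to amino acid shortage, lay below all genes. Their centred median was -0.36, with 5 of 19 genes (26.3%, against 4.78% of all genes) at least 2-fold lower after centring and 1 higher. As computed 2 were lower and 2 higher, and the median difference was 0.06. Atf5, a transcription factor of this response, was 28.6 FPKM in MycN against 98.9 in vector, 56.6 in Myc and 134 in Minimal Myc. Stc2, a secreted glycoprotein, was 0.645 FPKM in MycN against 2.37 in vector, 2.94 in Myc and 9.41 in Minimal Myc. Ddit4, an inhibitor of mTORC1 signalling, went against the list at 42.9 FPKM in MycN against 8.97 in vector, 48.8 in Myc and 17.2 in Minimal Myc, close to its level in Myc. Cholesterol and fatty acid synthesis had a centred median of -0.27, with 2 of 30 genes (6.67%) at least 2-fold higher as computed and 0 after centring. These 2 were Fasn and Elovl6, which make and lengthen fatty acids, at 55.2 FPKM in MycN against 26.1 in vector and 9.12 FPKM in MycN against 3.17 in vector.

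Genes of DNA replication and mitosis were above vector almost throughout. All 24 genes of the replicative helicase and its loading factors were higher, against 81.0% of all genes. At least 2-fold higher were 2 of them (8.33%), which is the share of all genes (8.16%), and the centred median was 0.21. Mcm3 and Mcm6, subunits of the helicase, were 115 FPKM in MycN against 43.05 in vector and 82.1 FPKM in MycN against 34.97 in vector. Fork enzymes were higher in 27 of 28 genes, 2 of them at least 2-fold (7.14%), with a centred median of 0.26. Dna2, a nuclease that trims Okazaki fragments, was 1.29 FPKM in vector and 4.45 in MycN, with 6.31 in Myc and 3.37 in Minimal Myc. All 32 mitotic genes were higher, 4 at least 2-fold (12.5%) and 1 after centring, and the centred median was 0.16. Ccnb2, a mitotic cyclin, was 82.2 FPKM in MycN against 28.8 in vector, 74.97 in Myc and 57.04 in Minimal Myc. Among 19 genes of G1 control 0 differed by 2-fold in either direction. Ccnd1, the cyclin that growth factors induce in G1, was 81.9 FPKM in vector and 65.03 in MycN, with 114 in Myc and 57.7 in Minimal Myc, and Skp2, which targets Cdk inhibitors for breakdown, was 15.8 FPKM in vector and 31.8 in MycN, with 23.3 in Myc and 31.2 in Minimal Myc.

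Cdk inhibitors and p53 targets split. Of 27 measured genes, 7 (25.9%, against 8.16% of all genes) were at least 2-fold higher against 0 lower. After centring the counts were 1 and 1, and the centred median was -0.16. Cdkn1b, the inhibitor p27, was 39.6 FPKM in MycN against 13.8 in vector, 28.3 in Myc and 16.7 in Minimal Myc, its highest level of the 4. Cdkn1a, the inhibitor p21, went the other way, at 25.005 FPKM in vector and 16.5 in MycN, with 9.92 in Myc and 8.18 in Minimal Myc. Cdkn2a, which encodes p16 and Arf, was 227 FPKM in vector and 543 in MycN, with 536 in Myc and 737 in Minimal Myc, higher in all 3 cultures given a protein. Mdm4 and Ccng2, a p53 inhibitor and an unusual cyclin of quiescence, were 16.5 FPKM in MycN against 5.96 in vector and 19.5 FPKM in MycN against 7.39 in vector. Gadd45g, a stress response gene, was 50.5 FPKM in vector and 29.3 in MycN, with 21.1 in Myc and 52.1 in Minimal Myc. In the Bcl2 family, 3 of 14 genes (21.4%, against 8.16% of all genes) were at least 2-fold higher as computed and 0 after centring. These were Bok, Bmf and Bnip3l, at 58.6 FPKM in MycN against 22.9 in vector, 2.72 FPKM in MycN against 0.489 in vector and 45.4 FPKM in MycN against 19.1 in vector. All 3 favour cell death or removal of mitochondria. Bcl2 and Bcl2l1, which protect cells, were 1.88 FPKM in MycN against 2.22 in vector and 26.6 FPKM in MycN against 29.2 in vector. Other members also lay near vector, such as Bad at 18.2 FPKM in MycN against 17.5 in vector and Mcl1 at 29.1 against 27.9. A shift of the family toward either side was not tested.

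Many interferon-stimulated genes, which cells switch on against viruses, were low in MycN. Of 42 measured antiviral effectors, 12 (28.6%, against 2.47% of all genes) were at least 2-fold lower and 0 higher, and 15 lay above vector. After centring 16 were at least 2-fold lower, against 4.78% of all genes. The median difference was -0.50 as computed and -0.30 in the scaled table. The centred median was -0.91, and it ran from -1.25 with a pseudocount of 0.1 to -0.42 with a pseudocount of 5. The summed level was not lower, at 729.5 FPKM in vector and 771 in MycN, and Ifitm2 and Ifitm3 were the largest terms in both. MycN had the lowest level of the 4 libraries in 26 of the 42, a count without a share of all genes to set it against. Oasl1, an inhibitor of Irf7 translation, was 1.17 FPKM in MycN against 23.1 in vector, 2.88 in Myc and 27.6 in Minimal Myc. Zbp1, a sensor of left-handed nucleic acid, was 0.407 FPKM in MycN against 4.88 in vector, 3.46 in Myc and 107 in Minimal Myc. Usp18, which removes Isg15 from proteins, was 0.988 FPKM in MycN against 5.74 in vector, 7.33 in Myc and 136 in Minimal Myc. Oas1a, whose promoter is shown above, was 0.439 FPKM in MycN against 3.54 in vector, 5.63 in Myc and 80.01 in Minimal Myc. For these last 3 genes vector and Myc lay within 2-fold of each other, MycN lay lower and Minimal Myc was far above all. Isg15 was 28.4 FPKM in MycN against 58.4 in vector, 50.3 in Myc and 753 in Minimal Myc, and Ifit1 and Ifit3 were 7.52 FPKM in MycN against 16.4 in vector and 1.996 FPKM in MycN against 6.595 in vector. The Ifitm genes, whose membrane proteins block viral entry, did not share the low level: Ifitm2 was 163 FPKM in vector and 296 in MycN, with 257 in Myc and 387 in Minimal Myc and Ifitm3 188 FPKM in vector and 230.2 in MycN, with 290.1 in Myc and 1350.3 in Minimal Myc. Near-identical neighbours such as Oas1a and Oas1g can share fragments, so their single values are uncertain.

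All 13 measured interferon-inducible GTPases, which attack the vacuoles of intracellular microbes, were lower in MycN than in each other library. Their levels in vector were low, and their sum over 16 genes was 28.3 FPKM in vector and 16.4 in MycN, with 45.5 in Myc and 474 in Minimal Myc. The centred median was -0.85, and it ran from -1.37 to -0.46 with the same 2 pseudocounts. At least 2-fold lower were 0 of 13 as computed, on a scale that shrinks low levels, and 3 after centring. Part of them passed the filter only through Minimal Myc, where they were high. For these a level below Minimal Myc follows from the filter. The count of 13 also has no share of all genes beside it, so it is no support for a difference. Gbp5, which did not pass, was 0.237 FPKM in MycN against 0.221 in vector. Irgm1 was 4.09 FPKM in MycN against 7.86 in vector, 11.1 in Myc and 78.9 in Minimal Myc. Iigp1 was 0.1701 FPKM in MycN against 1.03 in vector, 2.37 in Myc and 77.9 in Minimal Myc. Gbp3, of the guanylate-binding family, was 1.88 FPKM in MycN against 3.54 in vector, 4.34 in Myc and 80.02 in Minimal Myc.

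The sensors and transcription factors of the pathway did not move as 1 group. Of 25 genes, 2 were at least 2-fold lower and 2 higher as computed, and 2 and 1 after centring, with a centred median of -0.08. Irf7, which amplifies type I interferon, was 0.685 FPKM in MycN against 7.41 in vector, 3.83 in Myc and 58.3 in Minimal Myc. Ifih1, the RNA sensor MDA5, was 0.844 FPKM in MycN against 2.85 in vector, 1.57 in Myc and 16.4 in Minimal Myc. Both lay at least 2-fold below vector. Irf5, which drives inflammatory genes in immune cells, was highest in MycN, at 16.8 FPKM in MycN against 2.52 in vector, 5.92 in Myc and 7.99 in Minimal Myc, and Irf1 was 28.5 FPKM in MycN against 12.6 in vector, 29.9 in Myc and 43.1 in Minimal Myc. Stat2, which carries the interferon signal, was 4.14 FPKM in MycN against 4.64 in vector. MHC class I presentation genes stood with all genes, at a centred median of 0.01. Tap2, a subunit of the peptide transporter, was 6.56 FPKM in vector and 17.8 in MycN, with 10.9 in Myc and 27.4 in Minimal Myc, and H2-Q7, a nonclassical class I gene, was 2.22 FPKM in vector and 0.375 in MycN, with 1.23 in Myc and 15.5 in Minimal Myc. B2m, the light chain of class I, was 1269 FPKM in vector and 1073 in MycN, with 911 in Myc and 2324 in Minimal Myc. The class I genes share long stretches of sequence, so single values are uncertain.

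**Figure D2:**
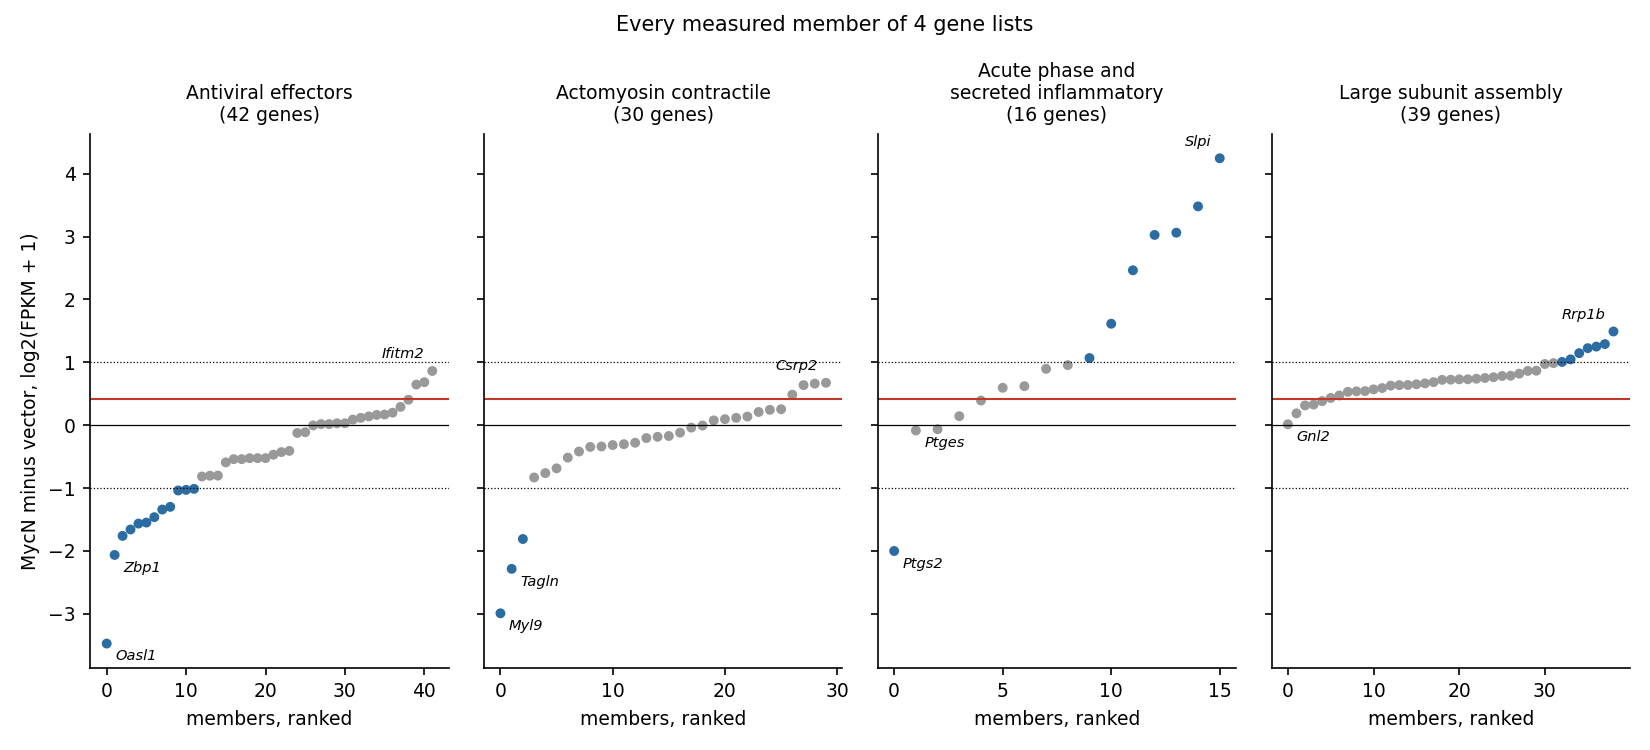
Difference between MycN and vector, log2(FPKM + 1), for each measured member of 4 gene lists, ranked within its list, 1 library per culture. Blue points differ by at least 2-fold (dotted lines) and the red line is the median of all genes, 0.42. Antiviral effectors and contractile genes reach far below 0, acute phase genes reach far above it, and large subunit assembly factors all lie above 0.

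Secreted acute phase proteins had the highest centred median, 0.51, of the lists with at least 8 measured members. Of 16 measured members, 7 (43.8%, against 8.16% of all genes) were at least 2-fold higher against 1 lower, and after centring 6 against 1. The median moved with the setting, to 1.31 with a pseudocount of 0.1, 0.13 with a pseudocount of 5 and 0.23 without a filter on low values. Another 8 did not pass the filter. Slpi, Serpina3n, Serpina3g, Saa1, Nos2 and Steap4 lay below 1 FPKM in vector and passed only through other libraries, where they were higher. The filter thus favours members above vector, so the count of this list is no support for a difference. Slpi, an inhibitor of neutrophil proteases, was 33.4 FPKM in MycN against 0.815 in vector, 49.03 in Myc and 24.3 in Minimal Myc. Lcn2, which withholds iron from bacteria, was 55.2 FPKM in MycN against 4.04 in vector, 8.73 in Myc and 30.96 in Minimal Myc. C3, the central complement protein, was 76.9 FPKM in MycN against 8.33 in vector, 15.02 in Myc and 5.91 in Minimal Myc. C3 was high in MycN alone, while Slpi was high in all 3 cultures given a protein. Saa3, an acute phase apolipoprotein, was 34.4 FPKM in MycN against 3.34 in vector, 30.7 in Myc and 227 in Minimal Myc. Serpina3n, a protease inhibitor, was 6.77 FPKM in MycN against 0.408 in vector, 1.36 in Myc and 2.23 in Minimal Myc. Ptx3, a soluble pattern recognition protein, was 48.2 FPKM in MycN against 15.1 in vector, 27.4 in Myc and 128 in Minimal Myc. The gene at least 2-fold lower was Ptgs2, the inducible prostaglandin synthase, at 16.9 FPKM in MycN against 70.6 in vector, 44.5 in Myc and 179 in Minimal Myc. Serping1 and Ptges lay slightly below vector, at 4.22 FPKM in MycN against 4.46 in vector and 2.17 FPKM in MycN against 2.36 in vector.

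Chemokines and cytokines went both ways. Of 21 measured genes, 3 were at least 2-fold higher against 4 lower, and after centring 1 against 5, with a centred median of -0.23. Cx3cl1, a membrane-bound chemokine, was 24.5 FPKM in MycN against 2.899 in vector, 5.47 in Myc and 1.595 in Minimal Myc. Cxcl1 and Cxcl5, which attract neutrophils, were 472 FPKM in MycN against 182 in vector and 128 FPKM in MycN against 59.4 in vector. Il33, an alarm cytokine kept in nuclei, was 0.6905 FPKM in MycN against 9.39 in vector, 3.85 in Myc and 27.7 in Minimal Myc. Ccl5, an interferon-responsive chemokine, was 159 FPKM in vector and 74.7 in MycN, with 29.6 in Myc and 125 in Minimal Myc. Il11 and Lif, of the Il6 family, were 3.87 FPKM in MycN against 9.32 in vector and 2.32 FPKM in MycN against 5.94 in vector.

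In the BMP list, 7 of 20 measured genes were higher by 2-fold or more and 5 were lower, against 8.16% and 2.47% of all genes, while after centring 1 was higher and 6 lower. The centred median was -0.12. Id1, Id2, Id3 and Id4, inhibitors of basic helix-loop-helix factors and standard BMP readouts, were all at least 2-fold higher in MycN than in vector as computed, and Id3 alone after centring. Id1 was 262 FPKM in vector and 645 in MycN, with 336 in Myc and 299 in Minimal Myc. Id3 was 155 FPKM in vector and 438 in MycN, with 328 in Myc and 301 in Minimal Myc. Id2 was 59.1 FPKM in vector and 136 in MycN, with 53.98 in Myc and 62.2 in Minimal Myc and Id4 was 8.12 FPKM in vector and 19.9 in MycN, with 5.23 in Myc and 14.6 in Minimal Myc. All 4 had their highest level in MycN. The other 3 genes at least 2-fold higher were secreted: the protease Bmp1 was 51.1 FPKM in MycN against 24.01 in vector, and the ligands Tgfb2 and Tgfb3 were 4.93 FPKM in MycN against 1.62 in vector and 14.2 FPKM in MycN against 5.64 in vector. Gdf10, Bambi and Inhba were among the genes lower. Gdf10, a ligand of the family, was 0.0417 FPKM in MycN against 5.32 in vector, 0.254 in Myc and 26.2 in Minimal Myc. Bambi, a decoy receptor, was 1.67 FPKM in MycN against 5.56 in vector, 1.999 in Myc and 4.91 in Minimal Myc. Inhba, the activin subunit, was 13.04 FPKM in MycN against 30.6 in vector, 23.3 in Myc and 72.4 in Minimal Myc.

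Among secreted Wnt proteins, 3 of 14 measured genes were at least 2-fold higher against 3 lower, and after centring 1 against 3, with a centred median of -0.32. Rspo2, which strengthens Wnt signals, was 7.46 FPKM in MycN against 0.3497 in vector, 1.96 in Myc and 1.595 in Minimal Myc. Dkk2 and Dkk3, of the Dickkopf family, were 0.9502 FPKM in MycN against 3.68 in vector and 0.491 FPKM in MycN against 3.27 in vector, and Wnt5a was 2.57 FPKM in MycN against 7.06 in vector. Insulin-like growth factor genes held Igfbp3, a binding protein, at 1.44 FPKM in vector and 25.3 in MycN, with 7.88 in Myc and 39.8 in Minimal Myc, and Igfbp6 at 154 FPKM in vector and 66.3 in MycN, with 100.5 in Myc and 127 in Minimal Myc. Growth factors and receptor kinases had a centred median of -0.39, and 7 of 28 were at least 2-fold lower after centring against 0 higher, where all genes had 4.78% lower. As computed 3 were lower and 2 higher, and the median difference was 0.03. Fgf2 was 0.716 FPKM in MycN against 4.07 in vector, 1.22 in Myc and 0.754 in Minimal Myc. Hbegf, a ligand of the EGF receptor, was 12.1 FPKM in MycN against 34.9 in vector, 16.6 in Myc and 26.4 in Minimal Myc.

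Axon guidance genes, which in fibroblasts act on cell shape and migration, were spread widely. Of 36 measured members, 8 (22.2%) were at least 2-fold higher and 5 (13.9%) lower, against 8.16% and 2.47% of all genes. After centring the split turned over to 3 higher and 7 lower, with a centred median of 0.10. MycN had the highest level of the 4 libraries in 17, again without a share of all genes. Rtn4rl2, a relative of the Nogo receptor, was 25.4 FPKM in MycN against 0.336 in vector, 3.92 in Myc and 1.199 in Minimal Myc. Sema3f, a secreted semaphorin, was 22.9 FPKM in MycN against 0.716 in vector, 3.83 in Myc and 6.197 in Minimal Myc. Efna1, an ephrin ligand, was 20.9 FPKM in MycN against 4.86 in vector, 7.86 in Myc and 2.21 in Minimal Myc. Sema3a and Sema3c, of the same class as Sema3f, went the other way. Sema3a was 3.42 FPKM in MycN against 16.6 in vector, 12.97 in Myc and 6.33 in Minimal Myc. Sema3c was 1.96 FPKM in MycN against 8.903 in vector, 14.03 in Myc and 8.23 in Minimal Myc. Slit2, the ligand of Robo receptors, was 6.65 FPKM in MycN against 20.2 in vector, 29.7 in Myc and 37.5 in Minimal Myc. Nrp2, a receptor of class 3 semaphorins, was 60.1 FPKM in MycN against 25.9 in vector, 42.8 in Myc and 44.3 in Minimal Myc.

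Imprinted genes, expressed from 1 parental copy, differed one by one. Of 17 measured, 3 were at least 2-fold higher against 2 lower, and after centring 0 against 2, with a centred median of 0.15. Dlk1, a Notch-like membrane protein of embryonic tissue, was 151 FPKM in vector and 375 in MycN, with 43.95 in Myc and 185 in Minimal Myc. Snrpn, a splicing protein gene, was 4.798 FPKM in vector and 0.0127 in MycN, with 0.1699 in Myc and 5.33 in Minimal Myc. H19, a long untranslated RNA, was 4.62 FPKM in vector and 0.439 in MycN, with 1.72 in Myc and 0.576 in Minimal Myc. Grb10, a signalling adaptor, was 0.0977 FPKM in vector and 0.105 in MycN, with 17.5 in Myc and 38.7 in Minimal Myc, near 0 in both vector and MycN and present in the other 2 libraries. Such on and off patterns between cultures were not tested for a link with MycN.

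Genes of collagens and their processing went both ways. Of 35 measured, 8 (22.9%, against 8.16% of all genes) were at least 2-fold higher against 2 (5.71%, against 2.47%) lower. After centring 5 were higher and 5 lower, and the centred median was 0.04. The chains described here were chosen after their values were seen. Col6a1, Col6a2 and Col6a3, the 3 chains of microfibrillar collagen VI, were all at least 2-fold higher. Col6a1 was 52.8 FPKM in vector and 139 in MycN, with 108 in Myc and 62.3 in Minimal Myc. Col6a2 was 31.3 FPKM in vector and 87.9 in MycN, with 64.01 in Myc and 30.4 in Minimal Myc. Col6a3 was 8.74 FPKM in vector and 25.9 in MycN, with 22.5 in Myc and 2.45 in Minimal Myc. In Minimal Myc these chains lay near vector or below it. Col3a1, a fibrillar collagen, was 35.3 FPKM in vector and 115 in MycN, with 62.96 in Myc and 74.1 in Minimal Myc. Other fibrillar chains differed less, with differences of 0.71 for Col1a1, 0.24 for Col1a2 and -0.24 for Col5a1. Pcolce2, which aids collagen trimming, was 2.11 FPKM in vector and 13.5 in MycN, with 12.5 in Myc and 5.25 in Minimal Myc. The basement membrane chains Col4a1 and Col4a2 were lower. Col4a1 was 43.4 FPKM in vector and 24.8 in MycN, with 56.2 in Myc and 19.002 in Minimal Myc. Col4a2 was 36.8 FPKM in vector and 15.7 in MycN, with 37.8 in Myc and 16.3 in Minimal Myc. Both were also low in Minimal Myc. Col7a1, which forms anchoring fibrils, was 1.49 FPKM in MycN against 4.62 in vector, 4.66 in Myc and 1.35 in Minimal Myc.

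Other matrix genes showed the same spread. Of 35 glycoproteins and proteoglycans, 9 (25.7%, against 8.16% of all genes) were at least 2-fold higher against 4 (11.4%, against 2.47%) lower. After centring 5 were higher and 6 lower, with a median of -0.28. Dpt, the small matrix protein dermatopontin, was 74.2 FPKM in MycN against 8.97 in vector, 7.77 in Myc and 35.01 in Minimal Myc. Fmod, a proteoglycan that binds collagen fibrils, was 4.39 FPKM in MycN against 0.279 in vector, 0.474 in Myc and 0.0677 in Minimal Myc. Mfap5, a microfibril protein, was 0.344 FPKM in MycN against 5.51 in vector, 9.198 in Myc and 4.92 in Minimal Myc. Spon2, of the spondin family, was 2.59 FPKM in MycN against 13.8 in vector, 1.06 in Myc and 0.287 in Minimal Myc. Of 36 matrix proteases and inhibitors, 6 were at least 2-fold higher against 3 lower, which turned over to 3 against 7 after centring, with a median of -0.16. Mmp2 and Mmp9, the gelatinases, were 214 FPKM in MycN against 56.3 in vector and 41.6 FPKM in MycN against 11.8 in vector. Mmp3 and Mmp10, the stromelysins, went the other way. Mmp3 was 4.36 FPKM in MycN against 38.8 in vector, 64.01 in Myc and 51.2 in Minimal Myc. Mmp10 was 0.795 FPKM in MycN against 7.097 in vector, 12.2 in Myc and 9.48 in Minimal Myc. Serpine2, a thrombin inhibitor, was 4.64 FPKM in vector and 20.7 in MycN, with 12.8 in Myc and 12.9 in Minimal Myc. Timp1, an inhibitor of these enzymes, was 144 FPKM in vector and 60.8 in MycN, with 76.3 in Myc and 708 in Minimal Myc.

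Genes of the contractile cytoskeleton were low in MycN relative to all genes. Of 30 measured members, 3 (against 2.47% of all genes) were at least 2-fold lower and 0 higher, and after centring 6 were lower, against 4.78%. The centred median was -0.60, and MycN had the lowest of the 4 levels in 13, a count without a share of all genes. The list's median lay below 0 as computed, at -0.18, and above 0 in the scaled table, at 0.20. Myl9, the gene with the CArG box shown above, was 3.305 FPKM in MycN against 33.3 in vector, 82.9 in Myc and 59.2 in Minimal Myc. Tagln, an actin-binding protein of smooth muscle, was 29.4 FPKM in MycN against 147 in vector, 133 in Myc and 226 in Minimal Myc. Actg2, an enteric smooth muscle actin, was 16.9 FPKM in vector and 4.09 in MycN, with 7.18 in Myc and 3.48 in Minimal Myc. MycN was the lowest library for Myl9 and Tagln, whereas Actg2 was low in all 3 cultures given a protein. Vcl was 34.5 FPKM in vector and 25.5 in MycN, with 31.6 in Myc and 47.6 in Minimal Myc, a difference of -0.42. Acta1 was 13.8 FPKM in vector and 16.1 in MycN, with 18.2 in Myc and 19.7 in Minimal Myc, a difference of 0.21. The CArG letters were thus present in genes that were lower and in a gene that was not.

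Tmsb4x, which binds actin monomers and is normally among the most abundant messages of a fibroblast, had the lowest difference of the genes ranked. The ranking took genes above 0 in both libraries and left out small RNA genes, unnamed gene models and symbols with differing lines. Tmsb4x was 31.4 FPKM in MycN against 685 in vector, 1462 in Myc and 1252 in Minimal Myc, a difference of -4.40. The MycN level was below those of the other 3 libraries by at least 21.8-fold. Gene copies of near-identical sequence exist for this gene, so part of the value may depend on how fragments were shared out. Other actin regulators did not follow: the list of 33 had 2 genes at least 2-fold lower and 1 higher, and after centring 2 and 0, with a centred median of -0.20. Fscn1, an actin bundler, was 128 FPKM in vector and 277 in MycN, with 194 in Myc and 185 in Minimal Myc, and Gsn, which severs filaments, was 116 FPKM in vector and 192 in MycN, with 101 in Myc and 107 in Minimal Myc. Targets of Yap and Tgfb, which respond to stiffness and contraction, had a centred median of -0.66 and 9 of 22 (40.9%, against 4.78% of all genes) at least 2-fold lower after centring. As computed 1 was lower and 1 higher, and the median difference was -0.24, against 0.13 in the scaled table. Ctgf, a matricellular growth factor, was 119 FPKM in vector and 30.98 in MycN, with 16.8 in Myc and 68.5 in Minimal Myc. Tgfbi, a secreted adhesion protein, went the other way, at 7.94 FPKM in vector and 31.2 in MycN, with 12.1 in Myc and 19.2 in Minimal Myc.

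Surface and adhesion proteins also lay low relative to all genes. Of 33 measured, 7 (21.2%, against 2.47% of all genes) were at least 2-fold lower and 4 higher, and after centring 14 (42.4%, against 4.78% of all genes) were lower and 2 higher. Msln, the mesothelial surface protein mesothelin, was 38.6 FPKM in vector and 3.73 in MycN, with 18.3 in Myc and 15.3 in Minimal Myc. Itga6, a laminin receptor subunit, was 1.42 FPKM in MycN against 13.2 in vector, 12.1 in Myc and 3.4002 in Minimal Myc. Cdh2, the cadherin of mesenchymal cells, was 11.6 FPKM in MycN against 46.8 in vector, 34.5 in Myc and 30.7 in Minimal Myc. Itgb7 was 2.503 FPKM in MycN against 10.4 in vector. The Ly6 genes, small lipid-anchored proteins, were higher: Ly6c1 was 68.5 FPKM in vector and 235 in MycN, with 73.4 in Myc and 181 in Minimal Myc and Ly6a 155 FPKM in vector and 319 in MycN, with 137 in Myc and 323 in Minimal Myc. Cdh3, placental cadherin, was 13.7 FPKM in MycN against 2.54 in vector, 7.12 in Myc and 3.92 in Minimal Myc.

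Cornified envelope and keratin genes, which belong to skin, had 8 of 44 members past the filter, and 5 of these were at least 2-fold lower in MycN. The list passed mainly through vector, where its sum was 87.1 FPKM, against 15.5 in MycN, 29.9 in Myc and 28.05 in Minimal Myc, so its count is no support for a difference. Sprr1a, a cross-linked envelope precursor, was 0.182 FPKM in MycN against 23.6 in vector, 2.84 in Myc and 4.19 in Minimal Myc, and the MycN value rests on about 10.2 fragments. Sprr2h was 0.0393 FPKM in MycN against 9.41 in vector, 0.538 in Myc and 5.36 in Minimal Myc. Lce1g and Sprr2k were listed at 0 in MycN, where vector had 12.2 and 8.56 FPKM. All 4 genes were lower in Myc and in Minimal Myc than in vector as well. Of 15 epithelial markers, 14 lay below 1 FPKM in vector and in MycN.

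Early response genes were mixed. Of 13 AP-1 genes, 2 were at least 2-fold higher against 0 lower, and after centring 1 against 1: Junb was 81.3 FPKM in vector and 181 in MycN, with 88.7 in Myc and 140.1 in Minimal Myc and Batf3, better known from dendritic cells, was 2.01 FPKM in vector and 9.11 in MycN, with 7.15 in Myc and 2.61 in Minimal Myc. Of 31 Egr, Klf and related serum response genes, 2 were higher and 4 lower, and after centring 1 and 7, with a centred median of -0.19. Nr4a2 and Nr4a1, nuclear receptors induced early after a stimulus, were 1.998 FPKM in MycN against 11.7 in vector and 8.36 FPKM in MycN against 22.2 in vector. Dusp4, a phosphatase that acts on Erk, was 44.3 FPKM in vector and 9.52 in MycN, with 14.7 in Myc and 11.6 in Minimal Myc, low in all 3 cultures given a protein. Dusp2, its relative, was 1.61 FPKM in vector and 8.71 in MycN, with 3.08 in Myc and 0.2702 in Minimal Myc. Clock genes had 1 of 17 at least 2-fold higher as computed and 0 after centring, Per2, at 0.803 FPKM in vector and 3.14 in MycN, with 1.65 in Myc and 0.962 in Minimal Myc.

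The lysosome list had 2 of 49 genes at least 2-fold higher against 0 lower, and after centring 0 against 1, with a centred median of -0.20. Gusb, a lysosomal glucuronidase, was 18.8 FPKM in vector and 44.4 in MycN, with 37.2 in Myc and 39.8 in Minimal Myc, and Atp6v1g1, a proton pump subunit, was 451 FPKM in vector and 236 in MycN, with 204 in Myc and 267 in Minimal Myc. The Nrf2 antioxidant list had 4 of 32 higher against 0 lower, and after centring 1 against 1, with a centred median of -0.11. Cbr2, a carbonyl reductase, was 33.04 FPKM in MycN against 2.94 in vector, 1.11 in Myc and 0.811 in Minimal Myc, and Gsto1, a glutathione transferase, was 145 FPKM in MycN against 266 in vector, 499 in Myc and 327 in Minimal Myc. Hox genes, which keep the body position of a fibroblast, had 4 of 41 at least 2-fold higher against 1 lower, and after centring 2 against 1, with a centred median of -0.01. Hoxc12 and Hoxc13 were 3.25 FPKM in MycN against 0.185 in vector and 6.38 FPKM in MycN against 1.58 in vector, and Hoxa11 was 0.115 FPKM in MycN against 1.62 in vector, 4.52 in Myc and 3.59 in Minimal Myc. The shares of the Hox genes lie near those of all genes.

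**Figure D3:**
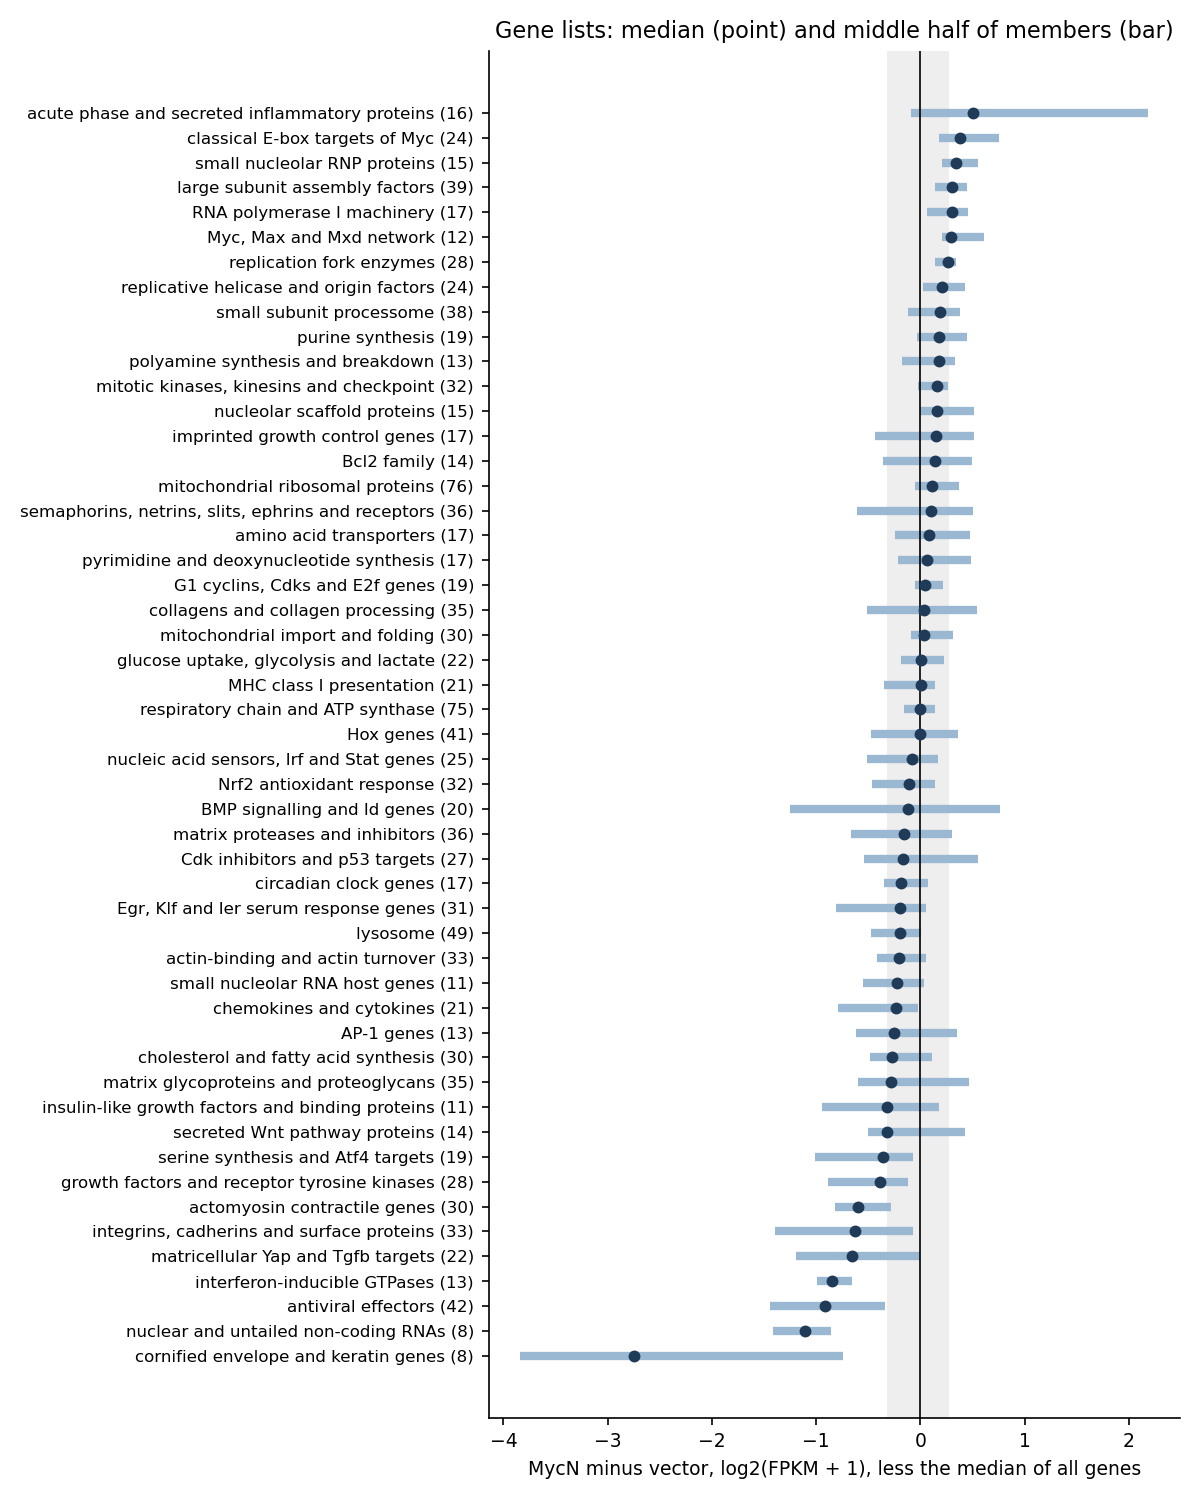
Centred difference between MycN and vector, log2(FPKM + 1) less the median of all genes, for gene lists with at least 8 measured members, the number in brackets after the name, 1 library per culture. Points are medians, bars span the quartiles of the members, and the grey band spans the quartiles of all genes. Acute phase proteins (0.51) and classical Myc targets (0.38) stand at the top, and antiviral effectors (-0.91), untailed RNAs (-1.10) and cornified envelope genes (-2.75) at the bottom.

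Nuclear and untailed RNAs lay low in MycN relative to all genes. Whether their capture or their expression differed was not tested. Of 8 measured nuclear or untailed RNAs, 2 were at least 2-fold lower as computed and 5 after centring, against 2.47% and 4.78% of all genes, and the centred median was -1.10. Rn45s, the rRNA precursor and 1 of the 8, was listed at 0 in both vector and MycN and passed the filter through the other 2 libraries, and with genes listed at 0 left out the median was -1.16. Neat1 lay near vector, at 65.3 FPKM in MycN against 59.5 in vector. Malat1, a nuclear RNA, was 381 FPKM in vector and 192 in MycN, with 124 in Myc and 64.04 in Minimal Myc. Rmrp, an untailed RNA of a ribonuclease, was 118 FPKM in vector and 57.7 in MycN, with 22.5 in Myc and 14.9 in Minimal Myc. Rpph1, the RNA of ribonuclease P, was 55.9 FPKM in vector and 35.6 in MycN, with 12.2 in Myc and 11.6 in Minimal Myc. Vector had the highest level of these last 3, and the part of these RNAs in the median difference of 0.42 was not tested. Host genes of small nucleolar RNAs had 0 of 11 at least 2-fold different.

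The 15 highest and the 15 lowest genes above 0 in both libraries hold many genes already described. Small RNA genes, unnamed gene models and symbols with differing lines were left out before ranking. Besides Mycn, Rtn4rl2, Slpi, Sema3f, Lcn2 and Igfbp3, the high end held Cxcr7, a scavenging chemokine receptor, at 16.8 FPKM in MycN against 0.736 in vector, 5.65 in Myc and 14.3 in Minimal Myc. Cd74, the invariant chain of MHC class II, was 42.9 FPKM in MycN against 3.39 in vector, 6.96 in Myc and 2.06 in Minimal Myc. Cbr2, C3, Saa3, Dpt and Cx3cl1 followed, with Sdc3, a cell surface proteoglycan, at 24.4 FPKM in MycN against 2.07 in vector, 5.602 in Myc and 9.72 in Minimal Myc and Stc1, a secreted hormone, at 13.2 FPKM in MycN against 0.942 in vector, 9.49 in Myc and 29.4 in Minimal Myc. The vector values of Rtn4rl2 and Slpi rest on about 23.9 and 36.5 fragments, so counting alone leaves their folds imprecise. Their MycN values rest on about 2514 and 2101 fragments.

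The low end held, besides Tmsb4x, Sprr1a, Oasl1, Sprr2h, Msln, Myl9, Mmp3 and Il33, several genes of other kinds. Havcr2, an immune checkpoint receptor, was 0.531 FPKM in MycN against 11.4 in vector, 3.56 in Myc and 9.38 in Minimal Myc. Slco2a1, the prostaglandin transporter, was 0.341 FPKM in MycN against 9.37 in vector, 5.25 in Myc and 2.93 in Minimal Myc. Fhl1, a LIM protein of muscle, was 0.285 FPKM in MycN against 8.94 in vector, 1.68 in Myc and 3.48 in Minimal Myc. Iqgap2, a scaffold of the cytoskeleton, was 0.716 FPKM in MycN against 10.4 in vector, 13.8 in Myc and 8.74 in Minimal Myc. Ildr2 and Rnf130 were 0.0348 FPKM in MycN against 5.97 in vector and 0.157 FPKM in MycN against 6.64 in vector, both also low in Myc. Pisd-ps1, a gene copy, was 0.0128 FPKM in MycN against 6.56 in vector, 0.0192 in Myc and 2.704 in Minimal Myc, and its fragments may be shared with its parent gene.

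A value of 0 in Cufflinks output may stand for an estimate that failed. Without small RNA genes, 11 genes were listed at 0 in vector and 11 in MycN. The highest of them in MycN were Lars2, a mitochondrial leucine tRNA synthetase gene, Filip1l, Cdk8, Cep250 and Zc3h7a, all listed at 0 in vector. The highest in vector were Acin1, Lce1g, Sprr2k, Hmgb4 and Fam5c, listed at 0 in MycN. Acin1, Lars2, Cdk8 and Cep250 are used by nearly all cells, so no fold is given for these genes.

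**Figure D4:**
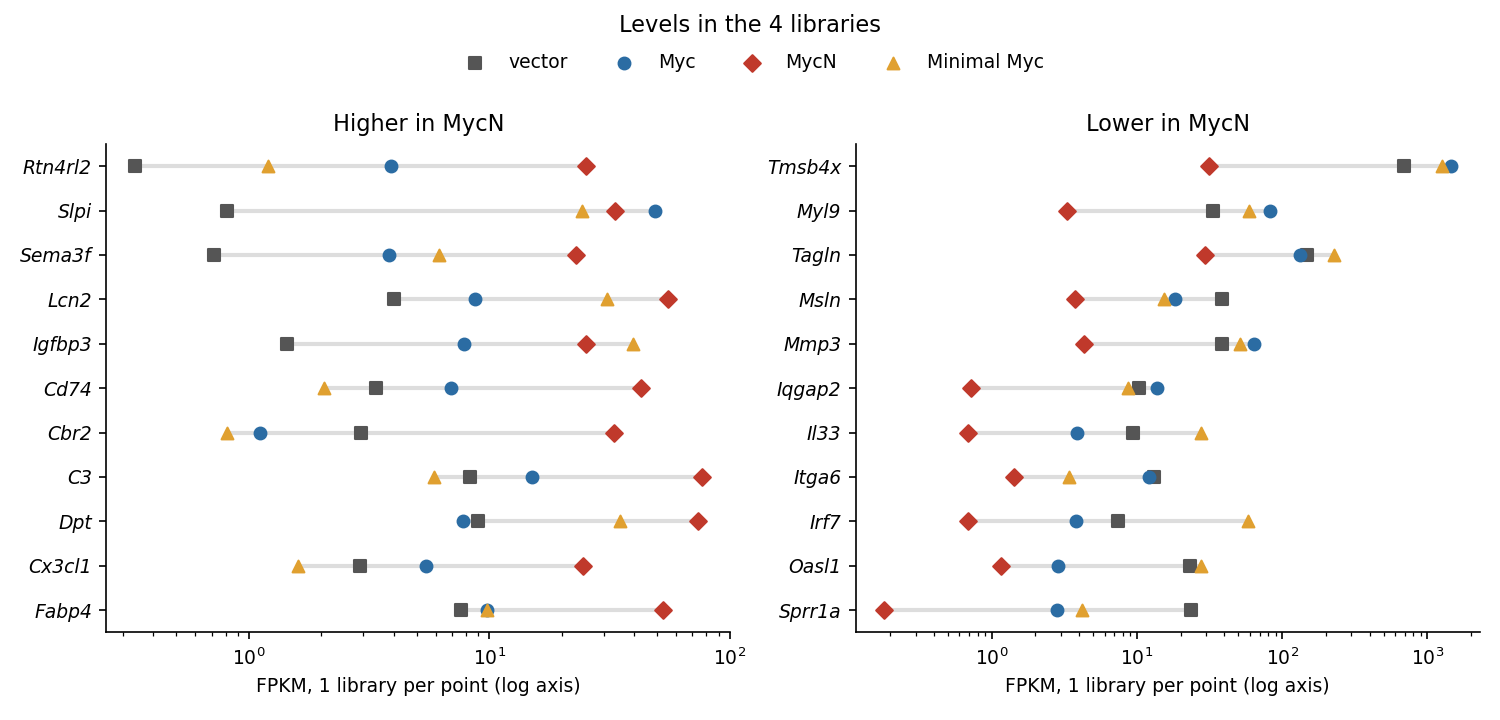
FPKM of 11 genes higher and 11 genes lower in MycN than in vector, 1 point per library on a log axis. The red MycN points lie at the far right for Rtn4rl2, Cd74, Cbr2 and C3 and at the far left for all 11 genes of the lower set, while Slpi was highest in Myc and Igfbp3 in Minimal Myc.

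Some genes set MycN apart from all other libraries and not only from vector. At least 2-fold above each of the other 3 were 99 genes (0.828%), and at least 2-fold below each were 88 (0.736%). Without small RNA genes these were 69 and 81. With small RNA genes kept, the counts were 92 and 190 for vector, 55 and 29 for Myc and 334 and 66 for Minimal Myc. Without them, they were 35 and 171 for vector, 42 and 18 for Myc and 317 and 44 for Minimal Myc. Standing apart was thus not special to MycN. In a ranking with the same kinds of symbols left out, the largest gaps above the others were in Cbr2, Cd74, Rtn4rl2, Fabp4 and C3. Dpep1, a membrane dipeptidase, was 10.3 FPKM in MycN against 1.34 in vector, 1.15 in Myc and 0.138 in Minimal Myc. Sulf2, which removes sulfate from heparan chains, was 26.4 FPKM in MycN against 3.92 in vector, 5.29 in Myc and 1.42 in Minimal Myc, while its relative Sulf1 was 0.0267 FPKM in MycN against 3.14 in vector, 2.21 in Myc and 11.6 in Minimal Myc. The linker histone genes H1f0 and H1fx, which pack chromatin, were both apart. H1f0 was 196 FPKM in MycN against 74.7 in vector, 52.4 in Myc and 74.2 in Minimal Myc. H1fx was 96.99 FPKM in MycN against 25.9 in vector, 29.2 in Myc and 30.9 in Minimal Myc.

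Genes set apart on the low side, ranked in the same way, were led by Tmsb4x, Myl9, Mmp3, Lgals9, Iqgap2 and Mmp10. Lgals9, the galectin that binds Havcr2, was 2.18 FPKM in MycN against 18.1 in vector, 39.8 in Myc and 106 in Minimal Myc. Cck, the gene of the gut and brain peptide cholecystokinin, was 113 FPKM in MycN against 390.4 in vector, 891 in Myc and 1820.0 in Minimal Myc. Rgs16, a brake on G protein signals, was 3.05 FPKM in MycN against 21.9 in vector, 13.9 in Myc and 26.8 in Minimal Myc. The lists of antiviral effectors and contractile genes supplied Usp18, Zbp1, Oas1a, Oas1g and Tagln to this end.

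NanoString, which counts RNA molecules by hybridization, was read on 30 genes that carry a second value in the deposited tables. The signal of MycN was above vector in 21 genes and below it in 9, with a median ratio of 1.28. FPKM ratios of the same genes had a median of 1.71, and the FPKM ratio was the larger in 29 of 30. The FPKM ratio divided by the NanoString ratio had a median of 1.36 and ran from 0.996 to 2.06. The factor of 1.30 in the scaled table equals the mean NanoString ratio. It multiplies FPKM ratios that were already the larger, so the scaled values are no independent estimate. Ptma had the highest NanoString ratio, 2.55, and its FPKM ratio was 3.33. Cdca7, a Myc target that binds DNA, was next at 2.09, with an FPKM ratio of 3.07. Gusb and Ncl followed, at 1.95 and 1.92. These genes were thus higher in MycN by both readouts.

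The low end by NanoString held genes that FPKM placed near vector. B2m had a NanoString ratio of 0.487 and an FPKM ratio of 0.845. Actb, cytoplasmic actin, had 0.681 and 1.001. Polr2a, the large subunit of RNA polymerase II, had 0.888 and 1.57, so its direction differed between the readouts. In 29 of 30 genes the NanoString signal of MycN lay below that of Myc, Ccnd2 being the exception, and in 7 it was the lowest of the 4 libraries. The sources used here do not give the normalization of the NanoString values, and which readout is nearer to RNA per cell was not tested. The 30 genes include no antiviral effector, no interferon-inducible GTPase and no contractile gene of the lists above, so those differences have 1 readout.

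**Figure D5:**
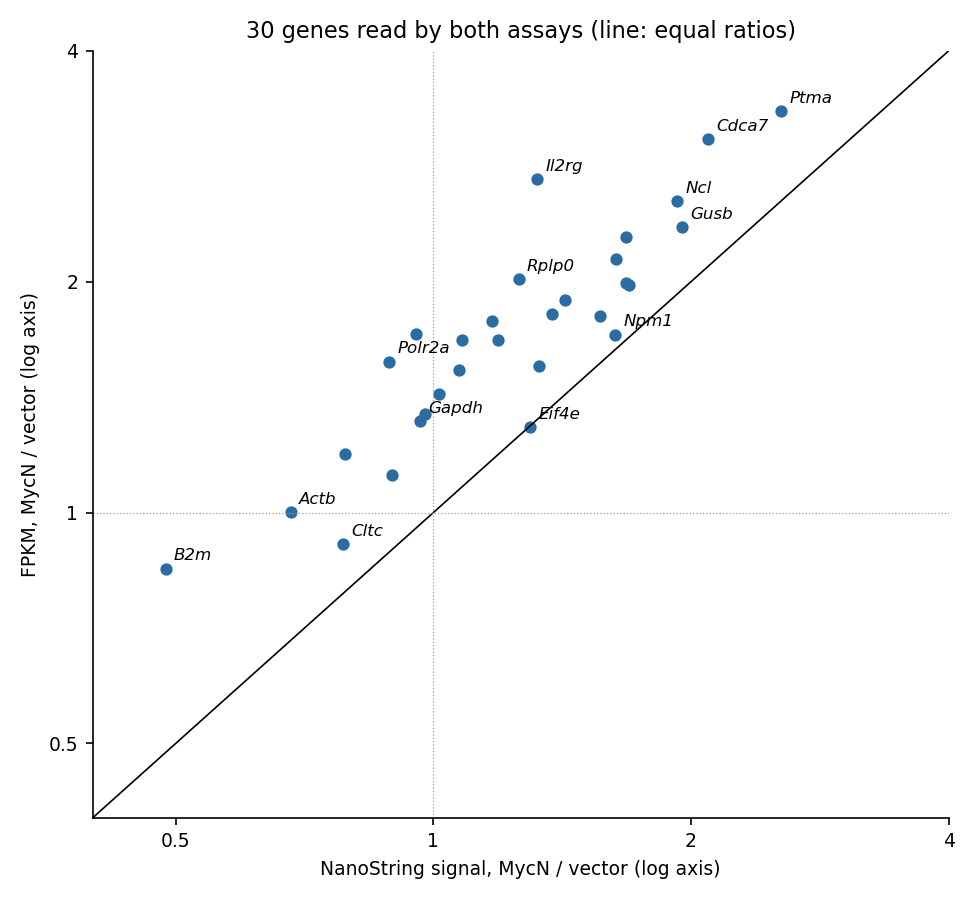
Ratio of MycN to vector by NanoString and by FPKM for the 30 genes read by both, on log axes, 1 value per culture and readout. The solid line marks equal ratios and dotted lines a ratio of 1. All points but Eif4e lie above the line, Ptma and Cdca7 are high by both, and B2m lies below 1 by both.

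Promoter letters differed little between the genes counted as higher and all genes. CACGTG stood in 11.3% of 204 windows of genes at least 2-fold higher after centring, in 7.21% of 416 windows of genes at least 2-fold lower and in 10.2% of all 10943 windows of the comparison. The related letters CACGCG stood in 17.2%, 12.0% and 17.3%. The interferon-type element stood in 1.96%, 6.49% and 3.02% of the same sets. The CArG box stood in 0.98%, 1.92% and 1.28%. The windows of the lower set had a median GC content of 57.7%, against 60.3% in the higher set and 61.0% over all. The part of base composition in these shares was not tested.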

How the data were processed

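RNA from 4 cultures, 1 library each, was measured by poly(A)-selected, strand-specific RNA-seq. The authors deposited FPKM, in an unscaled and a scaled table, with 26576 FPKM lines and 32 NanoString lines (30 genes). The NanoString values carry a signal and the sources used here do not give how the authors normalized it. The build mm9, Cufflinks 2.2.0 and TopHat2 2.0.11 are named, per the submitters' processing notes, with no role given.

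Lines of a symbol that differed (189 symbols) were summed. Genes were kept where their FPKM averaged 1 or more over the 4 libraries, and compared as log2(FPKM + 1), as computed and centred on the median, and counted at a difference of at least 2-fold. With 1 library per culture no test was run. Computations used Python 3.11.15, numpy 2.4.6 and pandas 2.3.3 and were tested on simulated data. Depth was estimated from the spacing of low FPKM and GENCODE transcript lengths.

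The genes compared and the 58 gene lists were chosen with earlier results of these data known. Named genes were the Myc network, the 15 highest and 15 lowest genes above 0 in both libraries, up to 4 members of each list farthest from the median, the NanoString extremes and genes listed at 0. Symbols of unnamed models, small RNAs and symbols with differing lines were passed over. Some genes that these choices would name are not reported here. Others were named after their values were seen, among them the Id, Ly6, Ifitm, collagen IV and VI, gelatinase and linker histone genes, members given as counter-examples, genes whose promoters are shown and most genes said to be apart from all other libraries. Alternatives varied the pseudocount, filter, fold, centring, table, treatment of zeros, of repeated symbols and of small RNA genes. Gene copies and overlapping genes can share fragments, so their single values are uncertain.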

Additional observations from a re-analysis of the deposited data

How the results depend on the processing

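The counts were 975 genes higher by 2-fold or more and 295 lower, with a median difference of 0.42. With a pseudocount of 0.1 the higher count was 1514. With a pseudocount of 5 the counts were 380 and 152 and the median was 0.28. Without a filter the median was 0.12, and with a filter of 5 FPKM the lower count was 184. In the authors' scaled table the higher count was 3301 and the median 0.76. Centring gave 281 and 571. A fold of 1.5 gave 3975 and 570, and a fold of 3 gave 198 and 145. For these moves the cause was not tested, except that a stricter fold counts fewer genes and a wider filter admits more low genes by construction. The counts moved by less than 1.5 times, and the median by at most 0.1, when zeros or small RNA genes were left out, when the highest line of a symbol was used, and, chosen after seeing the data, when the filter used Myc and Minimal Myc alone.

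Of 53 list medians after centring, 19 changed sign under some alternative, and each of these lay within 0.32 of 0. The 9 list medians at least 0.5 from 0 kept their sign under every alternative run. These medians are centred, so a shift of a whole library hardly moves them. Uncentred, Yap and Tgfb targets stood at -0.24 as computed and 0.13 in the scaled table, and contractile genes at -0.18 and 0.20. Adhesion genes stood at -0.21 and 0.17, and neural markers at -0.13 and 0.19. Among the 9 are the acute phase, cornified and GTPase lists, whose members passed the filter partly through a library where they were high. Of 156 named genes that differed by at least 2-fold, 0 changed direction, 47 fell under 2-fold with a pseudocount of 5 and 16 in the scaled table. No paired analysis was possible because each group has 1 library, and for the same reason no replicate could be left out. Where vector or MycN is near 0, a few fragments set the fold.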
